A study of Arabidopsis thaliana with 8 samples.

Results

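The genes described here are 34 named genes of Arabidopsis thaliana whose array signal was higher in a tatA antisense line than in WT in both replicate pairs. They were chosen by their own measured values. Each spot intensity had 0.1 added, log2 was taken, and the median over all spots of its array was subtracted, which gives the centred log2 value used throughout. A gene was taken where the mean tatA value exceeded the mean WT value by 0.8 or more in replicates 1-2 and again in replicates 3-4. Of 692 spots that map to exactly 1 gene, 46 passed both limits, or 6.65%. The rule leaves out 19 genes by name; 12 of these were among the 46, and the other 7 did not pass both limits. Because the rule used the tatA to WT contrast on all 8 arrays, the differences below are a description and carry no test.

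The study compared 4 samples of the tatA antisense line in ecotype Columbia 0 with 4 WT samples of the same ecotype. The labels speak of the line as tatA antisense and, in another field, as a tatA mutant. They name no promoter for the antisense construct, no tissue, no plant age and no growth condition, and they do not say whether replicates are separate plants or repeated arrays of 1 extract. Total RNA was measured on single-colour arrays of 3439 spots, 1 array per sample, and the values are linear spot intensities whose scaling the labels do not state.

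The twin-arginine translocation (TAT) pathway carries folded proteins from the stroma across the thylakoid membrane, driven by the ion gradient over that membrane. TatA is the subunit thought to line the passage, together with the receptor subunits TatB and TatC. Its passengers are lumenal proteins, among them subunits and assembly factors of the photosystems. The 34 genes were chosen by signal, not by function. By general knowledge they include an assembly factor of the chloroplast ATP synthase, an RNA-processing enzyme of the chloroplast, a tRNA methyltransferase, components of ubiquitin ligases, a calcium sensor and several metabolic enzymes, and for many of them no firm role can be given.

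Median spot intensity was 0.365 to 0.390 on the tatA arrays and 0.429 to 0.531 on the WT arrays, and 209 to 248 tatA spots against 172 to 192 WT spots per array were listed at 0. On the deposited scale the median named spot therefore had a log2 difference of -0.28, tatA minus WT, and the centring places that median at 0.004. Replicates 1 and 2 of a group resembled each other, as did replicates 3 and 4. The median absolute log2 difference over all spots was 0.17 to 0.19 within tatA pairs and 0.13 to 0.15 within WT pairs, against 0.27 to 0.30 between tatA pairs and 0.29 to 0.31 between WT pairs. An SD over 4 arrays thus joins a small spread within pairs and a larger one between them. With 4 arrays a group, means are no more precise than their SDs allow. Since RNA of many cells was measured together, a change in the proportion of cells that hold a transcript and a change in its amount per cell cannot be told apart. Marker genes were sought only among the spots that map to exactly 1 gene, not among the 870 spots with several genes. Of 7 marker genes of green tissue 1 was found there, the light-harvesting gene AT2G34420, with mean intensities of 8.01 in tatA and 6.43 in WT. None of the 33 marker genes listed for root, pollen, seed, senescence, defence, oxidative stress and heat was found among the spots with exactly 1 gene. Their part in the differences was not tested. The tatA transcript is not analysed here.

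Differences among the members were 0.82 to 2.02 in replicates 1-2, with a median of 1.20, and 0.83 to 3.48 in replicates 3-4, with a median of 1.31. Over all 692 named spots the medians were -0.04 and 0.06. In the opposite direction, 14 named spots, or 2.02%, were lower in tatA by 0.8 or more in both pairs. Among all 3439 spots, most of them without a gene name, 223 were higher in both pairs, a share of 6.48%. In the plot of both pair differences the members fill the upper right quadrant with no gap at its border. The members nearest to the limit were ATATH8 (0.82 in replicates 1-2), CML41 (0.83 in replicates 3-4) and AT5G40470 (0.86 in replicates 1-2). Just outside lay AT5G35100 (0.798 in replicates 1-2, and also left out by name), AT4G21770 (0.794 in replicates 1-2) and SEH1H (0.792 in replicates 3-4).

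**Figure D1:**
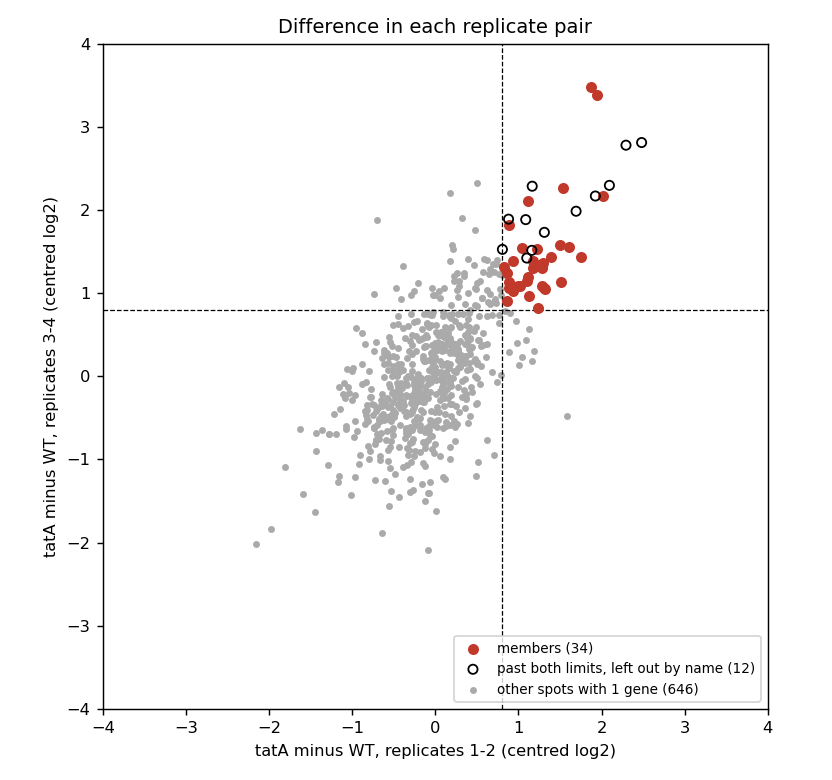
Difference between tatA and WT in replicates 1-2 (horizontal axis) and replicates 3-4 (vertical axis), both as centred log2 values, for the 692 spots with 1 gene; dashed lines mark 0.8. The 34 members are filled red, the 12 genes past both limits but left out by name are open circles, and the members meet the grey cloud of the remaining 646 spots at the limits.

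AT5G22620 belongs to the phosphoglycerate mutase family, whose enzymes move or remove phosphate groups on small metabolites. Its intensities were 0.762, 0.677, 0.735 and 0.458 on tatA replicates 1 to 4, against 0.106, 0.154, 0.0672 and 0.134 on WT replicates 1 to 4. Each tatA value lay above each WT value, and the lowest of the tatA arrays was replicate 4. Means were 0.658 ± 0.138 in tatA and 0.115 ± 0.0378 in WT (SD, n = 4 arrays each), a ratio of 5.70 on the deposited scale, which is the largest among the 33 members without a listed 0. Its centred differences of 2.02 and 2.17 in replicates 1-2 and 3-4 were close to each other, and that of replicates 1-2 was the largest of any member.

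AT1G30700, of the berberine bridge enzyme-like family of flavin-dependent oxidases, had intensities of 1.57, 1.69, 0.962 and 1.08 in tatA and 0.660, 0.727, 0.608 and 0.591 in WT. The groups did not overlap, and in tatA replicates 1-2 stood above replicates 3-4. Its differences were 1.30 and 1.07 in these pairs. AT5G11650, an alpha/beta hydrolase of the monoacylglycerol lipase-like group, had 1.10, 1.36, 0.884 and 0.984 in tatA, against 0.608, 0.673, 0.470 and 0.608 in WT. All tatA values exceeded all WT values, although the ratio of means was only 1.83, and the differences were 1.01 and 1.09. AT5G44000, of the glutathione S-transferase family, was one of the members whose groups overlapped. It had 0.451, 0.271, 0.381 and 0.143 in tatA, and 0.0779, 0.214, 0.130 and 0.0657 in WT, so that tatA replicate 4 lay under WT replicate 2.

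AT3G29185 encodes BFA1, a stromal factor for assembly of the catalytic head of the chloroplast ATP synthase. It had intensities of 0.110, 0.203, 0.326 and 0.334 in tatA, against 0.0299, 0.0883, 0.224 and 0.181 in WT. Here the groups overlapped, because both groups were higher in replicates 3-4 than in replicates 1-2. Its mean of 0.243 ± 0.107 in tatA was the lowest tatA mean of any member, beside 0.131 ± 0.0877 in WT (SD, n = 4 arrays each), and its differences were 0.87 and 0.90. ATATH8 is a member of the ABC1 family of atypical kinases, many of which reside in plastids. With 0.415, 0.380, 0.594 and 0.546 in tatA and 0.257, 0.182, 0.262 and 0.244 in WT, its groups were separate, and its differences were 0.82 and 1.31.

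AT2G25870 encodes the chloroplast endoribonuclease YbeY, which trims ribosomal RNA, fused to a hydrolase domain. On its member spot it had 0.460, 0.452, 0.338 and 0.387 in tatA, against 0.181, 0.136, 0.184 and 0.183 in WT. The groups were clearly apart there, with differences of 1.29 and 1.09. A second spot of the same gene went the other way. That spot read 0.754, 0.786, 0.612 and 0.813 in tatA and 0.960, 0.896, 1.54 and 1.72 in WT, with differences of -0.06 and -0.71. The spot that met the rule was the dimmer of the pair in both groups, and no direction can be given for the transcript from spots that disagree.

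Several members act on RNA or bind nucleic acids. AT3G56330 encodes a dimethylguanosine methyltransferase of tRNA. It had 0.608, 0.417, 0.490 and 0.569 in tatA, and 0.166, 0.273, 0.0931 and 0.0871 in WT. The WT values of replicates 3-4 were lower than those of replicates 1-2 while tatA stayed level, so that the difference was 1.12 in replicates 1-2 and 2.11 in replicates 3-4. AT4G08940 carries the PORR domain known from splicing factors of plant organelles. Its intensities were 0.840, 1.15, 1.10 and 1.02 in tatA and 0.465, 0.423, 0.565 and 0.464 in WT, with no overlap and differences of 1.18 and 1.31.

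AT2G47680, a helicase with a CCCH zinc finger, was the steadiest of these in tatA, with 0.292, 0.310, 0.307 and 0.299, against 0.117, 0.101, 0.154 and 0.187 in WT. Its differences were 1.12 and 0.97. AT5G04600, which has an RNA recognition motif, read 0.352, 0.231, 0.267 and 0.162 in tatA and 0.122, 0.154, 0.10 and 0.0874 in WT. The lowest tatA value was only just above the highest WT value, and the differences were 0.88 and 1.07. AT5G61470, a C2H2 zinc finger protein of the kind found among transcription factors, had means of 0.744 ± 0.110 in tatA and 0.359 ± 0.0429 in WT (SD, n = 4 arrays each). Its groups did not overlap, and its differences were 0.94 and 1.38.

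Members tied to ubiquitin ligases, the enzymes that mark proteins for breakdown, included AT1G49850, a RING-type zinc finger protein. It had 3.25, 3.85, 2.73 and 3.60 in tatA, against 1.61, 1.71, 1.37 and 1.35 in WT. All 4 tatA values were above all 4 WT values, and with means of 3.36 ± 0.487 in tatA and 1.51 ± 0.179 in WT (SD, n = 4 arrays each) it was among the brightest members in both groups. Its differences were 1.22 and 1.54. AT1G51550, an F-box protein with kelch repeats, was much dimmer. It read 0.436, 0.351, 0.337 and 0.308 in tatA and 0.157, 0.0485, 0.206 and 0.108 in WT, with separate groups and differences of 1.51 and 1.13.

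In signalling, CML41 is a calmodulin-like calcium sensor known for its place at plasmodesmata and its part in their closure after a bacterial signal. Its intensities were 0.630, 0.597, 0.636 and 0.609 in tatA, and 0.246, 0.237, 0.397 and 0.473 in WT. The tatA arrays were nearly equal, whereas WT replicates 3-4 lay above WT replicates 1-2, and the difference accordingly was 1.24 in replicates 1-2 and 0.83 in replicates 3-4. AT1G55440, a protein with the cysteine- and histidine-rich C1 domain, had 1.59, 1.61, 1.46 and 1.38 in tatA, against 0.476, 0.707, 0.580 and 0.546 in WT. Its groups were far apart, with differences of 1.50 and 1.58.

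AT3G57570, with armadillo repeats, showed a different arrangement. It read 0.154, 0.766, 0.275 and 0.659 in tatA and 0.0966, 0.238, 0.0732 and 0.231 in WT. In both groups replicates 2 and 4 were high and replicates 1 and 3 low, and the groups overlapped, since tatA replicate 1 lay under WT replicates 2 and 4. Its pair differences were 1.04 and 1.55. Without tatA replicate 2 its difference in replicates 1-2 was 0.14, and without WT replicate 1 it was 0.65, so that the gene would not have met the rule. Its difference over all arrays, 1.29, was 0.85 without tatA replicate 2 and 1.74 without tatA replicate 1, the widest such range among the members.

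The remaining members are given by their locus codes, with no role stated. By mean intensity AT4G35660 was the brightest member in tatA and in WT, although not on WT replicates 3 and 4 taken alone. It had 8.64, 8.04, 6.50 and 5.64 in tatA, against 2.57, 2.44, 0.751 and 0.515 in WT. The groups did not overlap, and WT replicates 3-4 were far below WT replicates 1-2, with a centred shift of -2.09 beside one of -0.49 in tatA. Its difference therefore was 1.87 in replicates 1-2 and 3.48 in replicates 3-4. AT3G25680 was the only member with a listed 0. It read 0.315, 0.306, 0.708 and 0.687 in tatA, and 0.0363 and 0.00647 in WT replicates 1 and 2 with both other WT replicates listed at 0. All tatA values were higher, and no fold is given. The centred differences, 1.95 and 3.38, rest on the 0.1 added before log2.

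AT3G06870 had 1.44, 1.46, 1.28 and 1.17 in tatA and 0.526, 0.487, 0.259 and 0.262 in WT. The groups were apart, and the WT values of replicates 3-4 again were the lower ones, with differences of 1.54 and 2.27. AT1G32520 was even within each group, at 0.666, 0.635, 0.533 and 0.499 in tatA against 0.187, 0.170, 0.173 and 0.174 in WT. Its differences were 1.61 and 1.56. AT4G03150 was similarly even, with 1.06, 1.02, 1.23 and 1.19 in tatA and 0.364, 0.425, 0.548 and 0.516 in WT, and with differences of 1.39 and 1.44. For both of these genes the lowest tatA value was well above the highest WT value.

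AT3G56810 had 0.427, 0.554, 0.300 and 0.422 in tatA, against 0.135, 0.0662, 0.156 and 0.0893 in WT, with differences of 1.75 and 1.44. AT2G32470 read 0.577, 0.601, 0.537 and 0.616 in tatA and 0.203, 0.230, 0.223 and 0.266 in WT, with differences of 1.30 and 1.36. Neither gene had overlapping groups. In AT2G41950 both groups were higher in replicates 3-4. Its values were 0.510, 0.502, 0.768 and 0.613 in tatA and 0.171, 0.192, 0.360 and 0.277 in WT, and its differences, 1.29 and 1.31, were nearly equal. AT5G51670 followed the same course, with 0.241, 0.267, 0.376 and 0.567 in tatA, against 0.0696, 0.0610, 0.162 and 0.236 in WT, and differences of 1.28 and 1.31. The lowest tatA value of AT5G51670 was just above its highest WT value.

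AT5G46560 had 1.06, 1.01, 1.11 and 1.06 in tatA and 0.564, 0.436, 0.630 and 0.574 in WT, with differences of 1.10 and 1.14. AT4G09620 had 1.19, 1.24, 1.50 and 1.36 in tatA, against 0.657, 0.754, 0.775 and 0.858 in WT, with differences of 0.88 and 1.13. AT5G40470 had 1.61, 1.75, 2.24 and 2.28 in tatA and 1.0, 1.01, 1.20 and 1.20 in WT, with differences of 0.86 and 1.24. These 3 bright genes had separate groups, with ratios of means of 1.92, 1.74 and 1.78 on the deposited scale.

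Among the other 5 members, AT3G01060 had means of 0.260 ± 0.050 in tatA and 0.0796 ± 0.0203 in WT (SD, n = 4 arrays each), with differences of 1.17 and 1.39. AT3G20490 had means of 0.366 ± 0.0736 and 0.153 ± 0.0691 in tatA and WT, with differences of 1.32 and 1.05. AT4G05490 had means of 0.292 ± 0.0559 in tatA and 0.0893 ± 0.0444 in WT, with differences of 0.89 and 1.82. In these 3 genes the groups were separate, and the gap between the pair differences of AT4G05490 lay in WT, where replicates 3-4 were lower by 0.81. AT3G59300 had means of 0.341 ± 0.0948 in tatA and 0.165 ± 0.0767 in WT, with differences of 0.99 and 1.09. AT1G63610 had means of 0.730 ± 0.237 in tatA and 0.425 ± 0.203 in WT, with differences of 0.93 and 1.02. In both AT3G59300 and AT1G63610 the groups were separate after centring and overlapped on the deposited scale.

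**Figure D2:**
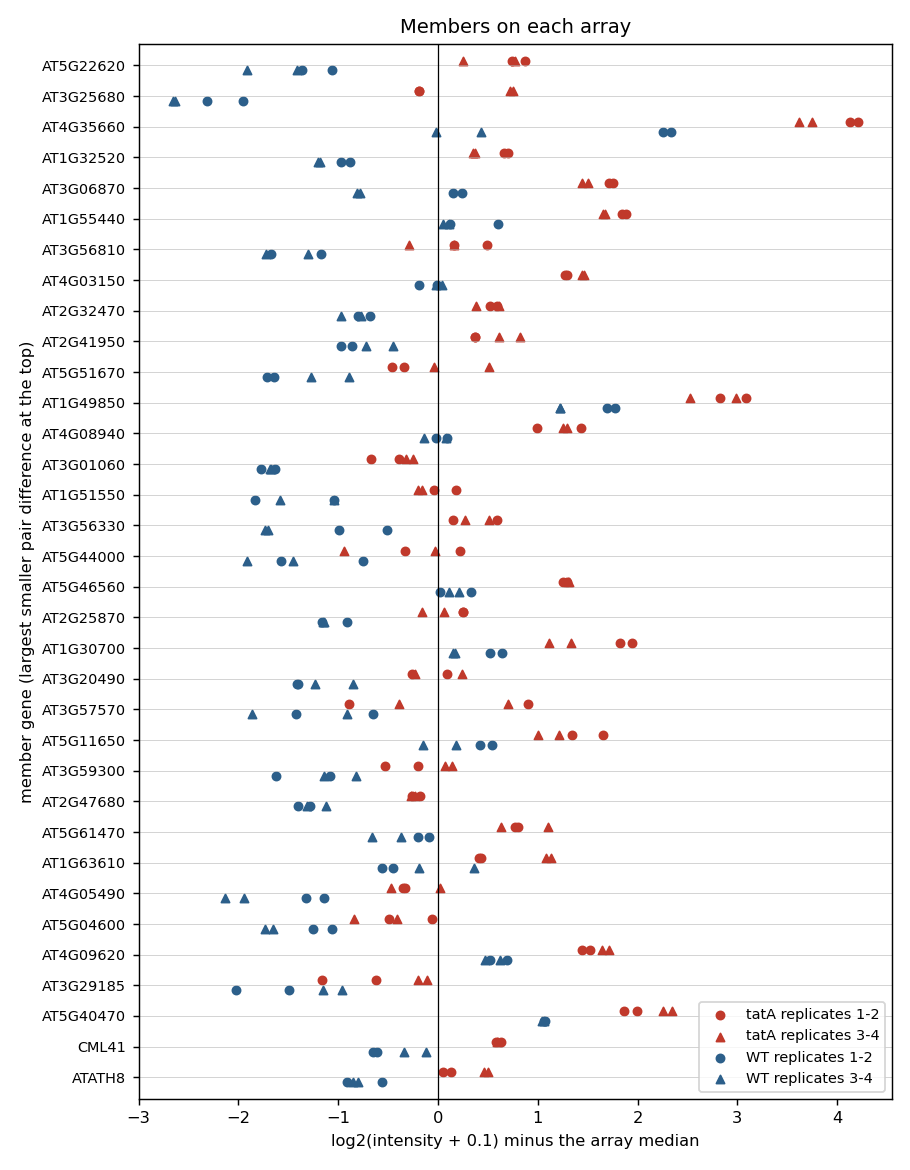
Centred log2 value of each of the 34 members on each array, 1 gene per row, with tatA in red above WT in blue, and with circles for replicates 1-2 and triangles for replicates 3-4; 0 is the median spot of the array. In 31 rows all red points lie to the right of all blue ones, and the points of a pair mostly lie close together.

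In all, the 4 tatA values lay above the 4 WT values in 31 of the 34 members after centring, the exceptions being AT5G44000, AT3G57570 and AT3G29185. Among all named spots this was so for 20.1%. On the deposited scale it held for 29 members, against 9.1% of named spots. Taking the arrays by replicate number, the difference was 0.8 or more at all 4 numbers in 24 members, beside 4.91% of named spots. The members were selected for this contrast, so nothing is read from these counts.

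The pair differences were alike in many members and far apart in a few. In 17 members they lay within 0.2 of each other, and in 6 they were more than 0.5 apart, compared with 210 and 254 of the 692 named spots. The rule asked for 0.8 or more in both pairs, which favours pairs that agree, so nothing is read from these counts. Replicates 3-4 gave the larger difference in 26 of the 34 members and in 425 of the 692 named spots. The 6 genes with the wide gaps were AT4G35660, AT3G25680, AT3G56330, AT4G05490, AT3G06870 and AT3G57570. In each of these 6 the centred WT value was lower in replicates 3-4 than in replicates 1-2, by 2.09, 0.51, 0.97, 0.81, 0.99 and 0.35 in that order. The same was so for 23 of the 34 members and 394 of the 692 named spots. All 6 had the larger difference in replicates 3-4, which by construction favours a lower WT value there. The tatA value of these genes moved by -0.49, 0.93, 0.02, 0.12, -0.26 and 0.15, in the order in which the genes are listed. For AT3G25680 both WT replicates 3-4 were listed at 0, so the size of its WT shift rests on the 0.1 added. Its moves in tatA and WT are therefore not ranked.

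The place of a gene among all spots of its own array does not change under a scaling applied alike to every spot of that array. Steps that treat spots differently, such as centring on nearby spots, can change it. By place among all spots, the median member lay at percentile 68.0 on the tatA arrays and at percentile 22.6 on the WT arrays. The median named spot was at 46.7 and 46.6. In WT, 25 of the 34 members were in the lower part of the array, under percentile 50, and in tatA 24 were over it. Of all 692 named spots, 368 were under percentile 50 in WT and 320 were over it in tatA. AT3G25680, the lowest of the members in WT, stood at 58.8 in tatA, against 4.82 in WT. AT5G22620 stood at 71.6 in tatA, against 14.0 in WT, the largest gain of any member at 57.6 percentile points. The smallest gain, 10.4 points, was that of AT1G49850, which already stood at 86.4 in WT and reached 96.8 in tatA. The members were selected on the same arrays and contrast, so higher percentiles in tatA follow largely from the rule.

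**Figure D3:**
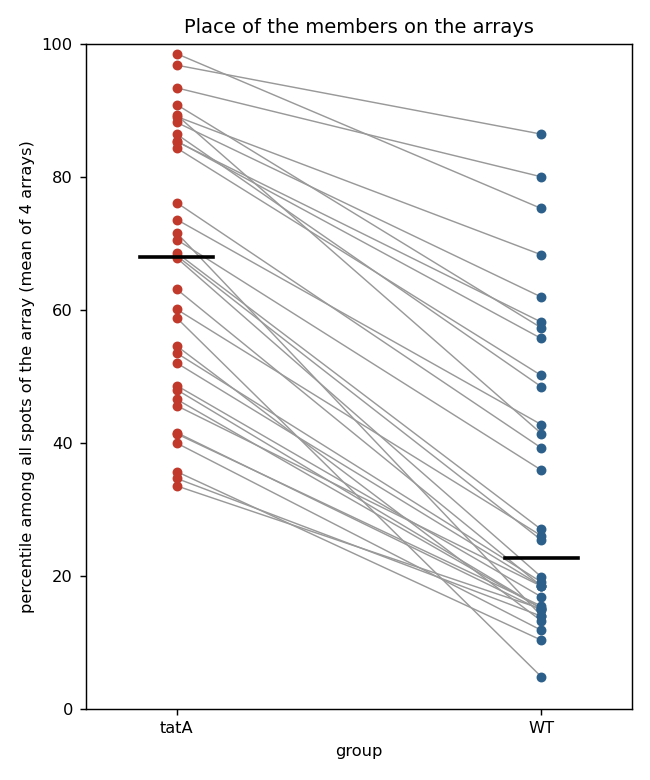
Percentile of each of the 34 members among all spots of an array, as the mean of 4 tatA arrays (left, red) and of 4 WT arrays (right, blue), with a line joining the values of 1 gene and a black bar at the median of each group. Every member stood higher on the tatA arrays, and the medians were 68.0 in tatA and 22.6 in WT. The members were selected for this contrast on the same arrays.

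How many genes the rule finds depends on the scaling and on the 0.1 added to each value. Mean intensities of the members on the deposited scale were 0.243 to 7.21 in tatA and 0.0107 to 1.57 in WT, so that many WT values were of the order of the added 0.1. With 0.5 added in its place, 7 of the 34 still passed both limits, and with 1 added 2 did, AT4G35660 and AT1G49850. Without centring, on the deposited scale, the median difference of the members was 0.98 and 17 of them passed both limits. Of the 34, 24 passed when each spot was centred on the spots with numbers up to 20 below or above its own. Leaving out 1 array at a time, 24 members passed both limits each time and 10 did not: AT5G04600, ATATH8, AT3G57570, AT3G29185, AT5G40470, AT5G44000, AT4G09620, AT3G59300, AT1G63610 and CML41. Over all arrays, the difference was above 0 in each alternative that gives a value for the gene. These are 19 for each member except AT3G25680, with 18, since it has none when spots with a 0 are left out. The members were selected for this contrast on these arrays, so nothing is read from the constant sign.

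**Figure D4:**
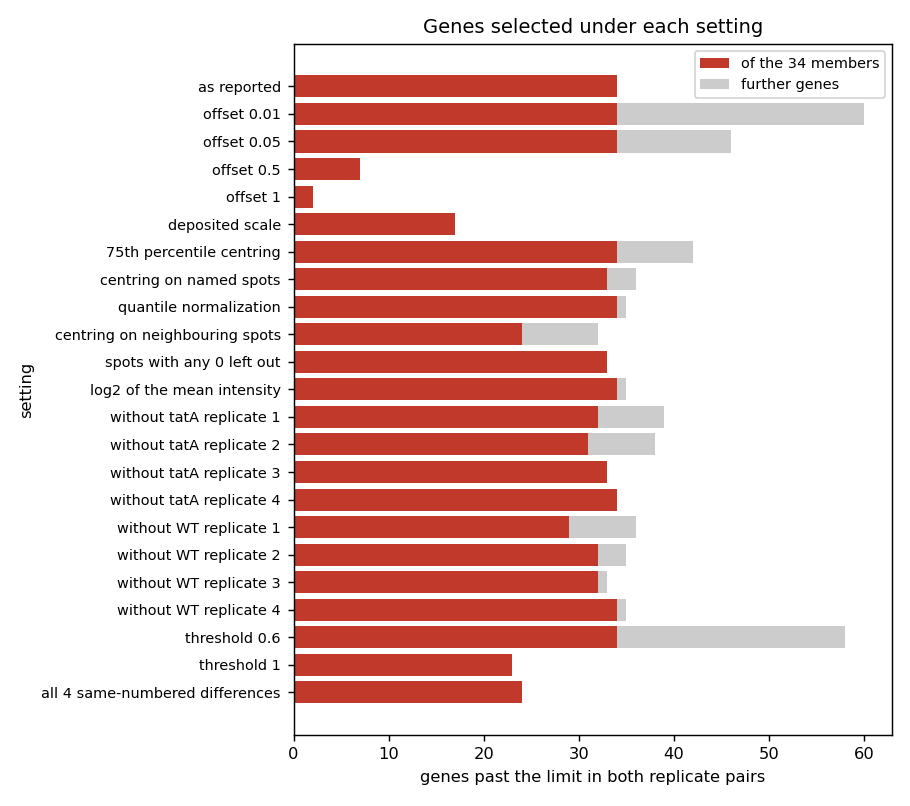
Number of named genes past the limit in both replicate pairs (horizontal axis) under each setting (rows), split into those of the 34 members (red) and further genes (grey). The red bar falls to 24 with centring on neighbouring spots, to 17 without centring, and to 7 and 2 with 0.5 and 1 added before log2. Grey bars appear with smaller additions and under other settings. Among these are centring on the 75th percentile and on neighbouring spots, with 8 further genes each.

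Position was examined along the genome and on the array. By locus code, 6, 5, 10, 5 and 8 members belong to chromosomes 1 to 5, of 174, 124, 130, 120 and 143 named spots. In the gene order of the TAIR10.1 annotation the closest members, AT3G56330 and AT3G56810, were 58 positions apart, so no members are neighbouring genes. On the array, AT3G59300 and AT3G01060 carry consecutive spot numbers. Of 53 spots numbered 1 below or 1 above a member, 4 passed both limits, or 7.55%, beside 6.48% of all spots. Of these 4, 2 are AT3G59300 and AT3G01060 themselves, each counted as a neighbour of the other.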

How the data were processed

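The deposited table holds 1 spot intensity per array for 3439 spots, on a linear scale. What the authors did to make these intensity values (spot reading, background, scaling) is not stated in the labels or the table. Groups and replicate numbers come from the sample titles. GEO's platform annotation gives 1 gene for 692 spots, several for 870 and none for 1877; 690 of the 692 matched a RefSeq locus (TAIR10.1), used for names and gene order only. Roles come from general knowledge, since these tables hold symbols without descriptions; for that reason the planned functional classes were not run, and promoter and protein features were not analysed.

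The members and lists were chosen with earlier results of these data known. The rule was applied with an addition of 0.1 and a limit of 0.8, in Python 3.11.15 with numpy 2.4.6 and pandas 2.3.3. Its code was also run on simulated arrays, which left out the dimmest spots and had no likeness within replicate pairs. That run therefore says nothing about dim members or about the pairs. Values on each array were to be given for the 12 members with the largest smaller pair difference and the 10 brightest in tatA; the other members so given were added after their values were seen, for their roles. No test of tatA against WT was run, and Dixon's ratio served only to flag single arrays. Alternatives were other additions, scalings, limits, neighbour centring, leaving out zeros or single arrays, and averaging before log2. Figures were drawn with matplotlib 3.10.9.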

Additional observations from a re-analysis of the deposited data

Results flagged for a closer look

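Of 68 groups of 4 arrays (34 members in tatA and in WT), 2 held an array whose gap to its nearest neighbour took up most of the group's range, by Dixon's ratio on centred log2 values, past its 95% critical value. The nominal rate of about 1 in 20 is for 4 independent values. The arrays came in like pairs and the members were selected on these values, so that rate may not hold here. For AT1G55440, WT replicate 2 stood high with an intensity of 0.707, beside 0.476 to 0.580 on the other WT arrays (ratio 0.873). For AT2G25870, WT replicate 1 stood high after centring (ratio 0.888), with an intensity of 0.181 beside 0.136 to 0.184 on the other WT arrays.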

How the results depend on the processing

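The number of genes found was 60 with 0.01 added before log2, 7 with 0.5, 2 with 1, 17 on the deposited scale and 58 and 23 with limits of 0.6 and 1.0, against 34 as reported. Requiring 0.8 at all 4 replicate numbers left 24. The median difference of the members, 1.26 as reported, was 1.61, 1.41, 0.69 and 0.46 with 0.01, 0.05, 0.5 and 1 added, 0.98 on the deposited scale and 1.33 with centring on the 75th percentile. Leaving out 1 array at a time gave 33 to 39 genes and a median of 1.19 to 1.27, and 29 to 34 of the 34 members remained. Quantile normalization, centring on named spots, on neighbouring spots, leaving out spots with a 0 and averaging before log2 moved the median by less than the spread between arrays. Of spots numbered within 2 of a member, 8 of 100 passed both limits, beside 4 of 53 within 1. More spots are counted within 2 by construction, and each count includes 2 members. For single members, 125 of 645 values moved by more than their spread between arrays. None changed sign, which the selection of the members on these arrays made likely beforehand. AT4G35660 and AT1G49850 alone passed both limits in all 19 alternatives that give a value per member. The cause of the differences between settings was not tested. Same-numbered arrays were set against each other only in the count at all 4 replicate numbers. No fit with the replicate number as a block was made, since no test of tatA against WT was run.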

Other observations

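The 6 members with spot numbers from 432 to 704 (AT5G51670, AT2G41950, AT3G59300, AT3G01060, AT3G29185 and AT1G63610) were higher in replicates 3-4 than in replicates 1-2 in both groups. Their centred values differed between the pairs by 0.24 to 0.74 in tatA and by 0.03 to 0.70 in WT. Over all 200 spots in this range of numbers the median shifts were 0.27 in tatA and -0.02 in WT, and the median difference between tatA and WT was 0.09. In blocks of 250 spot numbers over the whole array, the median difference between tatA and WT ran from -0.20 to 0.26. The range was chosen after its values were seen, and what the spot numbers mark on the slide is not stated in the labels.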
